A study of Homo sapiens with 3 samples.

Results

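The 50 genes described here act in the G2 phase of the cell cycle and in mitosis. They were listed by name, and all 50 were found among the 32732 genes that the features tables of the 3 libraries share. By general knowledge of when their transcripts peak, 20 were assigned as early genes (late S phase and G2, such as CDK1 and TOP2A) and 22 as late genes (the step from G2 into mitosis and mitosis itself, such as CCNB1 and CDC20). The other 8 were left unassigned.

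The genes were followed in single-cell RNA libraries of a human fibroblast conversion, with 1 library for each of 3 groups. Day 0 was the starting population of BJ fibroblasts, an established human line, and the libraries of day 3 and day 5 held cells labelled FiN, induced neuron cells, of WT genotype and with the treatment given as reprogramming. Per the labels' protocols, cells were on dishes coated with poly-D-lysine, in a medium with 10 µM forskolin, an activator of adenylyl cyclase, which was changed from induction to maturation medium on day 2 and lost its forskolin on day 5. The sources used here do not say whether the day 0 cells had met forskolin, and they describe suspended nuclei for the first 2 libraries but dissociated cells for the last. For days 0 and 3 the protocols name a kit for chromatin accessibility (ATAC) alone, and for day 5 a gene expression kit beside it, while all 3 files hold gene counts, so how the counts of days 0 and 3 were obtained is uncertain.

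Entry into mitosis is driven by the kinase CDK1 with its cyclin partners, after which chromosomes condense, the nuclear envelope is taken apart, kinetochores attach to spindle microtubules and the cell divides. Transcripts of these genes are made mainly in G2 and mitosis, so they are known as marks of cycling cells, and neurons, which have left the cycle, are known to carry little of them. Many of their promoters carry a cell cycle homology region (CHR) and CCAAT boxes, which the DREAM and MuvB complexes and the factor NF-Y are known to bind.

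Since the members share a known pattern of transcription, their promoters were searched in RefSeq windows of GRCh38.p14 from 250 bases before to 50 after each gene's start, in which 42 of the 50 members had an entry. A CHR, searched as TTTGAA or TTCGAA on both strands, was present for 32 of these 42 members (76.2%) and for 19.5% of the 27305 genes with a window. CCAAT boxes, searched as CCAAT on both strands, were present for 30 members (71.4%) and 39.7% of all genes, and both motifs for 26 members (61.9%) and 7.85% of all genes. Early and late genes held a CHR in the same share, 76.5% of the 17 matched members of each kind, and a CCAAT box in 64.7% and 88.2%. The upstream stretches of 4 members follow, for members whose levels differed in unlike ways between the libraries: CKS2 was highest at day 0, TOP2A at day 3 and CENPF at day 5, while CCNB2, a cyclin partner of CDK1, was called in no comparison. Each is the 250 bases before the start, 5′ to 3′ on the gene's own strand, with CHR and CCAAT matches on either strand in capitals.
CKS2: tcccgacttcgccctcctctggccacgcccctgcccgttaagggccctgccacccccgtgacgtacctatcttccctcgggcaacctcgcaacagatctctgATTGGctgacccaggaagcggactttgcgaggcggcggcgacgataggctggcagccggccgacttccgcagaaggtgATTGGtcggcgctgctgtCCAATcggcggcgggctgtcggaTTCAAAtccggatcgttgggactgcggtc
TOP2A: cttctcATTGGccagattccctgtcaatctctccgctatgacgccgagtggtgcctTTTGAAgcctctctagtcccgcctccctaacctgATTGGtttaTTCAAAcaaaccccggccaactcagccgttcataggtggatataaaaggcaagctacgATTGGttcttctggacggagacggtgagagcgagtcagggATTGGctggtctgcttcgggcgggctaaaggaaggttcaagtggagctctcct
CENPF: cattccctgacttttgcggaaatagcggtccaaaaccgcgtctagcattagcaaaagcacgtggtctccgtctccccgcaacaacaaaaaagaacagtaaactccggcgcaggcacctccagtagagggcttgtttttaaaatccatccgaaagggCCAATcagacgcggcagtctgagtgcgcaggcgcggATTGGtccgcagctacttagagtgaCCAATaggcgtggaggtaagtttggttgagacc
CCNB2: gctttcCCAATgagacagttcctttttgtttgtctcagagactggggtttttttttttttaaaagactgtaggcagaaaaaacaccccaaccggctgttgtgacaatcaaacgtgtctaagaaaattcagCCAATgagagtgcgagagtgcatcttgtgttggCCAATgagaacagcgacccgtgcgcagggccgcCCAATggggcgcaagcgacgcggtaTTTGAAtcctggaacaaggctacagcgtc
These stretches lie at chr9:89310945-89311194 (plus strand, CKS2), chr17:40417897-40418146 (minus strand, TOP2A), chr1:214602945-214603194 (plus strand, CENPF) and chr15:59104896-59105145 (plus strand, CCNB2). In CCNB2 the CHR began at base -29 and CCAAT boxes at -54, -87 and -120, with another at -244. CKS2 also had a CHR at -29, on the minus strand, with CCAAT boxes at -52, -70 and -148. TOP2A had 2 CHR matches, at -194 and -151, and 4 CCAAT boxes, and the CHR of CENPF, at base 41 after the start, lies outside the stretch printed. The 4 genes were chosen for their unlike orders of level over the days, so they cannot show how motifs and levels relate. A match of letters is a description, not a site shown to be bound.

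After filtering, 16773, 11454 and 9219 cells were kept at days 0, 3 and 5, with a median of 14039, 1324 and 4374 unique molecular identifiers (UMIs, each marking 1 captured RNA molecule). Mitochondrial RNA made up 6.45%, 0.744% and 4.94% of UMIs, and the nuclear RNA MALAT1 3.14%, 21.6% and 7.24%, so RNA makeup differed between the libraries in ways that cannot be told apart from the day. The libraries shared 63, 47 and 27 cell barcodes (day 0 with 3, 0 with 5, 3 with 5), and doublets were not called. Of 14 pan-neuronal markers, 5 (among them DCX, STMN2 and ELAVL4) were at 0 at day 3, where the list summed to 53.9 counts per 1000000 (CPM, a gene's UMIs scaled to 1000000 UMIs on the shared genes) against 82.1 at day 0 and 4098 at day 5. Fibroblast markers summed to 4808, 7008 and 306 CPM, so the day 3 library, by these markers, was fibroblast-like and not neuronal. Single fibroblast markers went both ways from day 0 to day 3. COL1A1 (2027 to 380 CPM), THY1 (223 to 23.1) and DCN (302 to 106) were lower. COL1A2 (917 to 2397), COL3A1 (122 to 979), PDGFRA (52.7 to 1281) and TWIST1 (20.7 to 227) were higher. COL6A3, PDGFRB, LUM and FBN1 stayed within 2 times. With 1 library per group there is no replicate check and no test, comparisons are between libraries, and all intervals are exact 95% intervals that cover counting error only.

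The 50 members together held 1805 CPM at day 0, 1967 at day 3 and 2464 at day 5. In bulk sums such as these, fewer cells in G2 and less RNA per cell cannot be told apart. Single members lay between 3.51 (CDC25C) and 157 CPM (CKS2) at day 0, between 3.96 (NEK2) and 358 CPM (TOP2A) at day 3 and between 4.89 (PSRC1) and 193 CPM (CENPF) at day 5. These are levels of tags, not per length. In GENCODE 29 (GRCh38) the gene bodies span chr9:89311198-89316703 (CKS2), chr17:40388516-40417950 (TOP2A), chr1:214603195-214664588 (CENPF) and chr5:138285265-138338355 (CDC25C). The median member was at 24.7, 22.1 and 32.5 CPM. TOP2A and CENPF were among the 5 highest members in every library, and CKS2 at days 0 and 3.

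**Figure D1:**
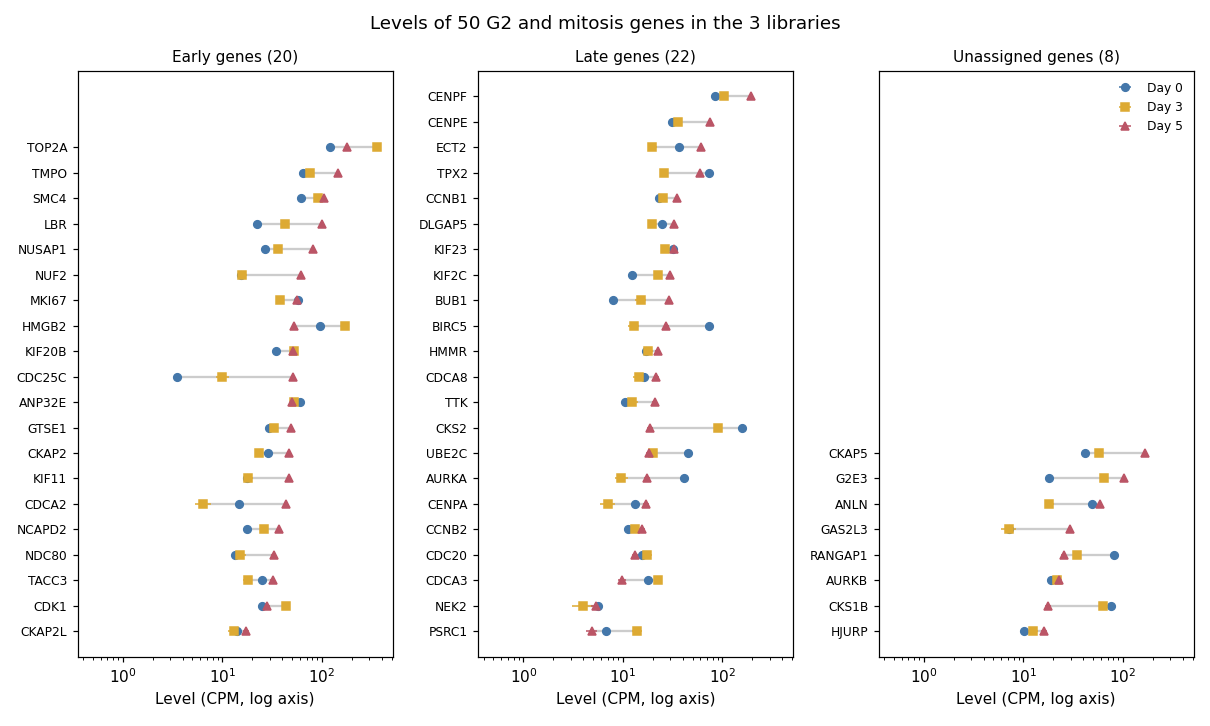
Level of each of the 50 members (CPM, log axis) at day 0 (circles), day 3 (squares) and day 5 (triangles), with exact 95% Poisson intervals, ordered within early, late and unassigned genes by the day 5 level. TOP2A lay highest at day 3 (358 CPM), CKS2 at day 0 (157 CPM) and CENPF at day 5 (193 CPM).

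A gene was called higher or lower in a comparison if its CPM differed by a factor of 2 or more, reached 10 in 1 of the libraries and had Poisson intervals that stayed apart. Between day 3 and day 0, 3 of the 47 members that reached 10 CPM were called higher and 7 lower, where over all 10431 tested genes 37.6% were called higher and 19.1% lower. The 3 higher members were TOP2A, PSRC1 and G2E3, and the 7 lower ones CDCA2, UBE2C, AURKA, BIRC5, TPX2, RANGAP1 and ANLN. Scaling matters here: with TMM factors, which shift every log2 ratio by -1.20, 0 members were called higher and 27 lower (14.5% and 46.5% of all genes), and the median of ratios gave 0 and 26 (15.2% and 45.3%). The 7 lower calls held under all 4 scalings tried, while 27 of the 50 log2 ratios changed sign in at least 1 of them. The median member stood at a log2 ratio of 0.15 against 0.81 over 14626 genes, and 41 of 50 members lay below that all-gene median, a comparison that no scaling moves.

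Between day 5 and day 3, 16 of 49 tested members were called higher and 5 lower, beside 36.5% and 28.7% of the 12623 genes tested. TMM factors shifted this comparison by only 0.06 on the log2 scale, and all 21 calls held under all 4 scalings. The median log2 ratio was 0.57 for members against -0.22 for the same 14626 genes, with 41 of 50 members above that median. The limit of 10 UMIs can lower it, as said above. Between day 5 and day 0, 16 of 48 members were called higher and 6 lower, beside 49.1% and 26% of 12084 genes, but with TMM factors the split was 3 and 14 (32.6% and 43.0% of all genes), and the median of ratios gave 3 and 15 (32.7% and 42.9%). Only LBR, CDC25C and G2E3 were called higher, and UBE2C, AURKA, BIRC5, CKS2, CKS1B and RANGAP1 lower, under all 4 scalings. The members' median was 0.52 against 0.71 for the same 14626 genes, with 31 of 50 below it. These comparisons share libraries with each other, so their counts are not independent.

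The 6 genes of the entry kinase did not move as 1 unit. CDK1, the kinase itself, was at 24.9 CPM at day 0, 43.7 at day 3 and 28.2 at day 5, and was called in no comparison under any of the 4 scalings. Of its cyclins, CCNB1 was at 22.8, 25.1 and 35.1 CPM and CCNB2 at 11.3, 13.4 and 15.7, with no call except for CCNB1 at day 3 against day 0, lower with TMM factors (0.481) or the median of ratios. The small subunits that bind CDK1 had larger ratios. CKS2 stood at 157 CPM at day 0 (155.8 to 158.9), 90.1 at day 3 and 18.7 at day 5 (17.5 to 19.9), a day 5 to day 0 ratio of 0.119, or 0.0541 with TMM factors. Its relative CKS1B stood at 75.5, 62.5 and 17.7 CPM, also called lower at day 5 against both other libraries. CKS1B and CKS2 are close in sequence and have processed copies elsewhere in the genome, so their counts are uncertain to that extent. CDC25C, the phosphatase that activates CDK1, went the other way at 3.51 (3.28 to 3.75), 9.99 (8.61 to 11.53) and 51.0 CPM (49.0 to 53.0), so no 2 intervals overlapped and the day 5 level was 14.5 times that of day 0, or 6.61 times with TMM factors.

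Of 6 tested mitotic kinases and activators, 2 were called lower and 0 higher at day 3 than at day 0, beside 19.1% and 37.6% of all genes. AURKA, which acts at spindle poles, was at 40.8, 9.62 and 17.4 CPM, and TPX2, which activates it, at 72.7, 25.9 and 59.2. These were the 2 called lower, and of them only TPX2 was called higher again at day 5 than at day 3. The checkpoint kinase BUB1 was at 7.93, 15.1 and 29.005 CPM, called higher at day 5 than at day 0 except with TMM factors or the median of ratios, while TTK (10.5, 12.4 and 20.8), NEK2 (5.68, 3.96 and 5.38) and TACC3 (25.01, 18.01 and 31.9), a spindle protein, passed no call by totals. TACC3 was lower at day 3 than at day 0 with TMM factors (ratio 0.314) and the median of ratios, and NEK2 with the latter. In the chromosomal passenger complex, which corrects kinetochore attachments, the subunits differed: BIRC5 was at 73.7, 12.8 and 27.3 CPM, while the kinase AURKB was at 18.9, 21.8 and 22.9 and CDCA8 at 16.4, 14.4 and 21.6. BIRC5 was thus 5.77 times lower at day 3 than at day 0, and its partners were not called by totals, while CDCA8 was lower at day 3 than at day 0 with TMM factors (0.383).

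All 8 kinetochore and centromere genes had a higher CPM at day 5 than at day 3, and 4 of them (50%) passed the call, beside 36.5% of all genes. NUF2 was at 15.4, 15.7 and 61.6 CPM and its partner NDC80, with which it forms the microtubule-binding complex, at 13.3, 15.2 and 32.6. The kinetochore motor CENPE was at 30.8, 35.7 and 75.1 CPM, and CENPA, the centromeric histone, at 13.3, 7.002 and 17.1. CENPF, a large kinetochore protein, was at 84.2, 104 and 193 CPM, which is 1.86 times higher at day 5 than at day 3 and under the limit of the call. HJURP, the chaperone that deposits CENPA, passed no call at 10.2, 12.4 and 16.0 CPM. At day 5 against day 0, 5 of 8 (62.5%) were called higher by totals, beside 49.1% of all genes. With TMM factors 0 were, beside 32.6% of all genes. At day 3 against day 0, 0 were called by totals, beside 37.6% of all genes called higher and 19.1% lower. With TMM factors 3 were lower (NDC80, NUF2 and CENPA), beside 46.5% of all genes.

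Of 13 spindle and motor genes, 5 (38.5%) were called higher and 1 lower at day 5 than at day 3. The share called higher was near the 36.5% of all genes, of which 28.7% were called lower. CKAP5, a microtubule polymerase, was at 41.6, 57.3 and 165 CPM, KIF11, the motor that pushes spindle poles apart, at 17.6, 18.1 and 46.1, and NUSAP1, which bundles microtubules, at 26.5, 36.1 and 81.2. GAS2L3, which links actin to microtubules, was at 7.16 at both earlier days and at 29.5 at day 5, and CKAP2 at 28.5, 23.1 and 46.6. The 1 lower gene was PSRC1, at 6.71, 13.9 and 4.89 CPM. At day 3 against day 0 the group had 1 higher and 0 lower calls of 12 by totals, beside 37.6% and 19.1% of all genes. With TMM factors it had 0 higher and 8 lower of 13, beside 14.5% and 46.5% of all genes. The motors KIF20B (34.8, 52.0 and 51.7), KIF23 (31.6, 26.5 and 32.3) and KIF2C (12.3, 22.4 and 29.9), and CKAP2L, HMMR, DLGAP5 and GTSE1, stayed within 2 times between days 3 and 5. Among the genes of cytokinesis, ECT2, which activates RhoA at the cleavage plane, was at 36.5, 19.8 and 60.4 CPM and ANLN, an actin-binding ring protein, at 49.3, 18.2 and 59.3, so both were lowest at day 3.

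Of the 4 genes of ubiquitin ligases and mitotic exit, 0 were called higher and 1, CDCA3, lower at day 5 than at day 3. Over all tested genes the shares were 36.5% and 28.7%, so 1 of 4 is near the share called lower. CDC20, the activator of the anaphase-promoting complex, was at 15.4, 17.6 and 13.3 CPM, its partner enzyme UBE2C at 44.8, 19.99 and 18.2 and CDCA3 at 18.1, 22.6 and 9.80. Only G2E3, a ubiquitin ligase named for its peak in G2, had a higher CPM at each later day, at 18.2, 63.9 and 103.

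Of the genes of chromosome structure, TOP2A, the topoisomerase that untangles sister chromatids, was at 120.5 CPM at day 0 (119 to 122), 358 at day 3 (350 to 367) and 179 at day 5 (176 to 183). Its day 3 to day 0 ratio of 2.97 was called by totals, and was 1.30 and not called with TMM factors. The chromatin protein HMGB2 was at 95.5, 171 and 51.9 CPM, highest at day 3 by totals but at day 0 with TMM factors (day 3 to day 0 ratio 0.780) or the median of ratios, and was called lower at day 5 than at day 3. MKI67, which coats mitotic chromosomes, was at 56.8, 38.3 and 55.5 CPM, not called by totals and lower at days 3 and 5 than at day 0 with TMM factors (ratios 0.294 and 0.444). The condensin subunits SMC4 (62.1, 92.1 and 105.1) and NCAPD2 (17.7, 26.1 and 37.4) were highest at day 5 by totals, but their day 5 to day 0 ratios were 0.770 and 0.963 with TMM factors. ANP32E (60.6, 52.7 and 50.1), a histone chaperone, was not called by totals and was lower at days 3 and 5 than at day 0 with TMM factors (0.379 and 0.376). CDCA2, which recruits a phosphatase to chromatin, was at 14.7, 6.41 and 43.9. At the nuclear envelope, LBR, the lamin B receptor, was at 22.2, 42.4 and 100.1 CPM and TMPO at 64.8, 75.5 and 146, while RANGAP1 went from 81.0 to 34.5 and 25.4.

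The day 5 to day 3 ratios were ordered by the length of intron in the gene. Over the 50 members, Spearman's rho between intron bases and the log2 ratio was 0.70, beside 0.58 over the 12623 tested genes, and 0.030 beside 0.13 for day 3 over day 0. For day 5 over day 0 it was 0.66 beside 0.55. These are correlations across genes of the same libraries, which share depth and protocol, and are given as descriptions. Of the 16 members with the longest introns (at least 39900 bases, among them CDC25C, NUF2 and CKAP5), 12 were called higher and 0 lower at day 5 than at day 3, beside 36.5% and 28.7% of all genes, with a median log2 ratio of 1.27. Of the 16 with the shortest (up to 16920 bases, among them HMGB2, CKS1B and CKS2), 2 were called higher and 5 lower, with a median of -0.10. The sources used here do not say whether introns were counted in any library, and the part of intron length in the day 5 levels was not tested.

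**Figure D2:**
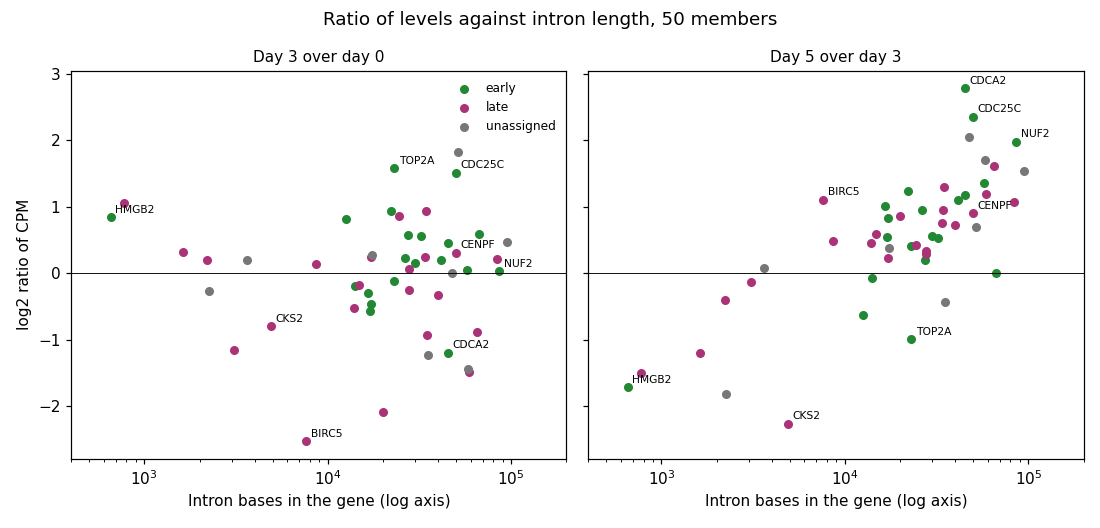
Log2 ratio of CPM against the number of intron bases in the gene (log axis) for the 50 members, at day 3 over day 0 (left) and day 5 over day 3 (right), coloured as early, late or unassigned. No order with intron length is seen at left (rho 0.030), while at right CKS2 and HMGB2 lie low at short introns and CDCA2, CDC25C and NUF2 high at long ones (rho 0.70).

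Early and late genes held 184350 and 185981 UMIs at day 0, and late genes held fewer than early ones at days 3 and 5. Late genes summed to 755, 549 and 759 CPM and early genes to 748, 1140 and 1266, so the ratio of late to early UMIs was 1.01 at day 0 (1.002 to 1.015), 0.482 at day 3 (0.470 to 0.493) and 0.600 at day 5 (0.592 to 0.607). This ratio does not depend on how libraries are scaled. Its size rests on which genes are summed, since TOP2A alone held 358 of the 1140 early CPM at day 3. Without 6 early genes that are also used broadly outside the cycle (HMGB2, TMPO, LBR, ANP32E, SMC4 and NCAPD2) it was 1.77, 0.807 and 0.979, and as a ratio of the median late to the median early gene 0.793, 0.543 and 0.436. Day 0 had the highest ratio in each of these 3 readings, and the order of days 3 and 5 was turned in the last. By calls, 1 of 19 early genes was higher and 1 lower at day 3 than at day 0, against 1 and 4 of 21 late genes, and at day 5 against day 3 the counts were 8 and 1 of 20 early and 5 and 3 of 21 late genes. The shares of all genes are 37.6% and 19.1% in the first comparison and 36.5% and 28.7% in the second, where 40% of early and 23.8% of late genes were called higher. With TMM factors the counts of the first became 0 and 10 of 19 early and 0 and 13 of 21 late genes. Over all genes 14.5% were then called higher and 46.5% lower.

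To compare cells at equal depth, each was thinned to 1000 UMIs, which kept 14382, 8441 and 9219 cells and left out 2391 at day 0, 3013 at day 3 and 0 at day 5 as shallower. No member was detected in 48.2%, 30.6% and 17.6% of cells, and at least 3 different members in 19.99% (19.3 to 20.7), 21.0% (20.2 to 21.9) and 33.7% (32.7 to 34.7). Without thinning the last shares were 59.5%, 34.6% and 92.3%, which follow depth. Cells with at least 5 members made up 10.5%, 8.47% and 12.6%. The variance of member UMIs per cell over their mean, which would be 1 if each UMI fell in a cell by chance alone, was 3.90, 3.40 and 2.46. Barcodes outside the called cells of day 5 also held members, so the day 5 shares, spread and contrasts between cells are given as values and not as differences from days 0 and 3. Before thinning, cells with at least 3 members had a median of 21105 UMIs against 14568 in cells with none at day 0, 1448 against 1748 at day 3 and 4345 against 4679 at day 5.

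**Figure D3:**
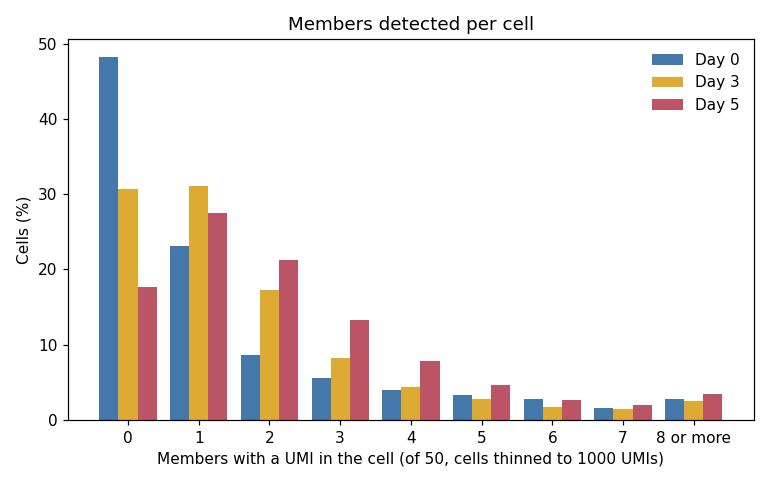
Percent of cells (bars from 0) by the number of the 50 members with a UMI, in cells thinned to 1000 UMIs, at days 0, 3 and 5. The bar for no member is 48.2% at day 0 and 17.6% at day 5.

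Each member was then compared between cells in which at least 3 of the other 49 members were detected and cells with none of them. TOP2A was at 377 against 11.1 CPM at day 0, 1039 against 128 at day 3 and 293 against 130 at day 5. CENPF was at 279 against 6.87, 277 against 42.6 and 304 against 157 CPM. At day 5 the level of both genes in cells with none of the others lay below that in barcodes of 1 to 100 UMIs, taken as free RNA (TOP2A 250.02, CENPF 239 CPM), so it is not read as expression by those cells. The median ratio over the 50 members was 20.5 at day 0, 4.87 at day 3 and 2.71 at day 5, and 44, 23 and 7 members reached a ratio of 5. The 2 kinds did not keep apart: the median was 27.3, 7.60 and 3.48 for the 14 early genes left without the 6 broad ones, 20.5, 4.90 and 3.15 for the 22 late genes, and 8.37, 3.18 and 1.92 for the 6 broad ones.

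Some members followed the others less. RANGAP1, which acts in nuclear transport in all cells, was at 107 against 66.8 CPM at day 0, a ratio of 1.60. CKS1B had a ratio of 4.87 at day 0, 0.883 at day 3 (63.5 against 71.9 CPM) and 1.27 at day 5 (25.4 against 19.9 CPM). Its detection with CKS2 was 1.62, 0.730 and 1.41 times the number of cells that independent detection would give. The day 5 value rests on only 6 cells against 4.27 expected. At day 5 CDC25C kept the widest contrast, at 118 against 9.16 CPM or 12.9 times, while CCNB2 was at 18.5 against 13.96. In barcodes of 1 to 100 UMIs CDC25C was at 21.4 CPM, CCNB2 at 38.1 and CKS1B at 58.5. For CCNB2 and CKS1B both kinds of day 5 cells thus lay below those barcodes. The part of free RNA in these contrasts was not tested.

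**Figure D4:**
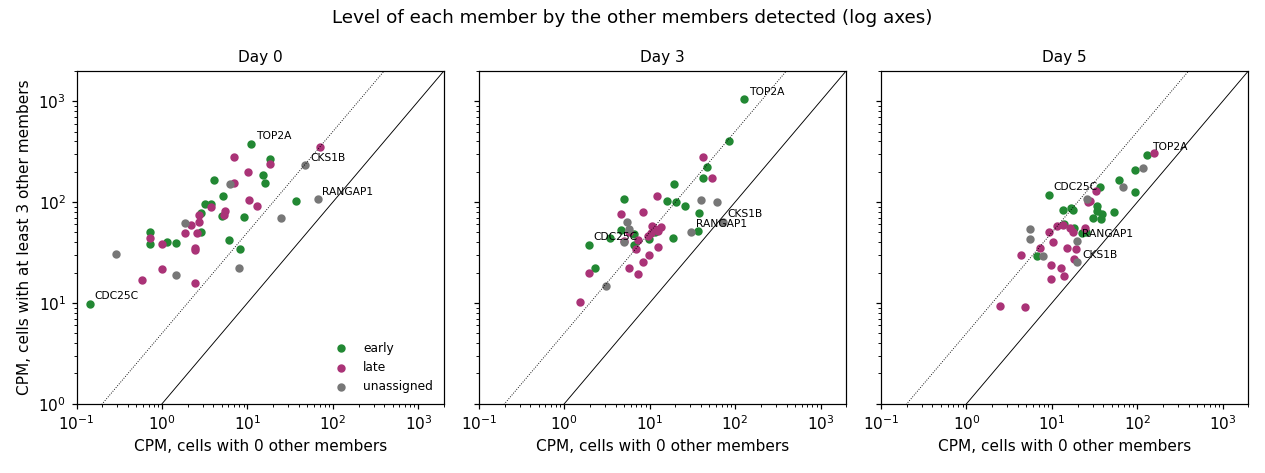
Level of each of the 50 members (points, CPM on log axes) in cells with at least 3 other members against cells with 0 other members, at days 0, 3 and 5, with a solid line at equal levels and a dotted line at a ratio of 5. At day 0 most points (44 of 50) lie at or above the dotted line, and at day 5 only 7.

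Pairs of members were scored by the number of cells with both over the number that independent detection gives, for pairs with at least 5 such cells. The median was 2.91 over 679 pairs at day 0, 1.77 over 537 at day 3 and 1.56 over 935 at day 5. Pairs of an early with a late gene had medians of 3.45, 2.29 and 1.67, beside 3.71, 2.38 and 1.83 within early and 3.27, 2.15 and 1.81 within late genes, and pairs with a broad gene came lowest, at 2.63, 1.61 and 1.27. CCNB1 with CDC20, which directs its destruction, fell under that limit on all 3 days, with 21, 11 and 8 cells holding both against 4.41, 2.96 and 4.91 expected. The highest pairs were MKI67 with TTK at day 0 (5.94, 32 cells), NUSAP1 with GTSE1 at day 3 (6.33, 42 cells) and BUB1 with GAS2L3 at day 5 (4.17, 25 cells). Doublets were kept, and their part in these ratios was not tested.

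Late genes followed early genes in cells of all 3 libraries. A late UMI was present in 21.7%, 24.6% and 39.2% of cells with none of the 14 narrower early genes, and in 88.6%, 97.9% and 85.5% of the 35, 47 and 55 cells with at least 5 of them. Cells with at least 2 early genes and no late gene numbered 151 at day 0 (1.05%), 253 at day 3 (3.00%) and 491 at day 5 (5.33%), and cells with at least 2 late genes and no early gene 681 (4.74%), 227 (2.69%) and 465 (5.04%). Early-only cells were thus 0.222, 1.11 and 1.06 times as many as late-only cells, a reading that rests on few UMIs per cell and gives no phase of single cells.

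**Figure D5:**
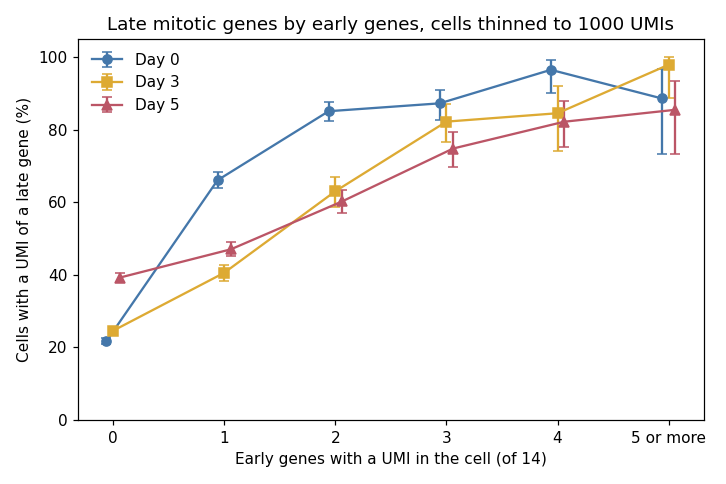
Percent of cells with a UMI of at least 1 of the 22 late genes by the number of 14 early genes detected, in cells thinned to 1000 UMIs, with exact 95% binomial intervals. The lines begin at 21.7%, 24.6% and 39.2% for days 0, 3 and 5 and come together above 80% at 4 or more early genes.

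At day 5 the members were also present in barcodes outside the called cells, and whether any of these were cells was not tested. The deposited day 5 matrix is unfiltered, and 50613 barcodes with 500 to 1000 UMIs, below the 2155 UMIs used to call a cell, held the members at 5000 CPM in sum, against 2464 in cells and 2565 in barcodes of 1 to 100 UMIs. TOP2A stood at 611 CPM in them and 179 in cells, CENPF at 770 and 193, CKS1B at 87.4 and 17.7 and HMGB2 at 257 and 51.9. The ratio was above 1 for 44 of 50 members with a median of 1.62, against 0.823 over 14626 genes, and 20 members reached 2 where 22.5% of all genes did. The 6 members lower there than in cells were CDC25C (0.301 times), GAS2L3, G2E3, CDCA2, GTSE1 and NUF2. Thinning to 500 UMIs was done for 48101 barcodes of 500 to 1000 UMIs, fewer than the 50613 summed above. Of these, 40.6% held at least 3 members, against 13.96% of cells. Their variance over mean was 1.05 against 1.72, so member UMIs were spread over them nearly evenly. The share of day 5 cells with at least 3 members therefore lay below that in barcodes not called as cells and is not read as a share of cycling cells, nor as a difference from days 0 and 3, whose files hold called barcodes only. At days 0 and 3 no cell type that should lack the members was at hand to give a background.

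Within day 5, cells with more pan-neuronal markers held fewer members. At 1000 UMIs, 41.4% (39.5 to 43.3) of 2630 cells with 0 or 1 of 14 pan-neuronal markers had at least 3 members and 2852 CPM in sum, against 25.9% (24.6 to 27.3) and 1990 CPM in the 4108 cells with at least 3 markers, and 16.0% (13.9 to 18.3) and 1484 CPM in the 1107 with at least 5. Median depths were close, at 4257, 4315 and 4345 UMIs. The late to early balance stayed near that of the whole library, with 911 late and 1474 early CPM in the first cells and 452 and 737 in the last. Cells with at least 3 members held the pan-neuronal list at 3174 CPM and cells with none at 4613, while the neural progenitor list was at 3827 and 3770. RFX4 (1855 and 2044) and VIM (1263 and 1166) made up most of that sum, and most of the others, though not FABP7 and SOX9, were higher in cells with at least 3 members, such as SOX2 (89.8 and 69.6 CPM), PAX3 (181 and 125.6) and MSI1 (123 and 96.7). At least 3 progenitor markers were seen in 28.8% of cells with at least 3 members and 21.3% of cells with none. In barcodes of 1 to 100 UMIs and uncalled ones of 500 to 1000 UMIs, the progenitor list summed to 5091 and 7673 CPM, against 3567 in cells. The pan-neuronal list was at 2888 and 3807 CPM there, against 4098 in cells. The part of free RNA in the contrasts between cells was not tested, and they are not read as cycling against non-cycling cells. All cells are of 1 library, so the intervals cover counting error and not a difference between cultures.

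Genes of the same program outside the 50 were read from fixed lists. Of 44 other mitotic genes, 2 of 37 tested were called higher and 7 (18.9%) lower at day 3 than at day 0, beside 37.6% and 19.1% of all genes. The counts were 18 and 5 of 41 at day 5 than at day 3, beside 36.5% and 28.7%, and 14 and 10 of 41 at day 5 than at day 0, beside 49.1% and 26%. With TMM factors they were 0 and 33 of 41, 18 and 5 of 39, and 8 and 19 of 43. Over all genes the shares were then 14.5% higher and 46.5% lower, 37.49% and 26.96%, and 32.6% and 43.0%. The medians of these other mitotic genes lay on the same side of the all-gene medians as those of the members. They were -0.25 beside 0.81, 0.49 beside -0.22 and 0.60 beside 0.71. These all-gene medians carry the limit of 10 UMIs in every library given above. UBE2S, which extends ubiquitin chains for the anaphase-promoting complex, was at 360.5, 95.3 and 36.0 CPM, and MELK, a mitotic kinase, at 18.02, 7.80 and 91.4. S phase genes were lower at day 3 than at day 0 in 17 of 28 and higher in 2, with a median of -1.23, beside the 19.1% and 37.6% of all genes called lower and higher. At day 5 against day 3, 12 of 27 were higher and 2 lower, beside 36.5% and 28.7%. With TMM factors the counts were 24 lower and 0 higher of 29, beside 46.5% and 14.5% of all genes. At day 5 against day 3 they were 13 higher and 2 lower of 26, beside 37.49% and 26.96%. Among known regulators of the members' transcription, MYBL2 was at 23.0, 3.05 and 13.4 CPM, FOXM1 at 27.7, 14.3 and 22.2, and the MuvB subunits LIN52 at 10.3, 6.47 and 114 and LIN9 at 3.18, 11.3 and 60.1. Of 15 tested regulators, 4 (26.7%) were called higher and 3 (20%) lower at day 3 than at day 0. The counts were 6 (40%) and 3 (20%) at day 5 than at day 3, and both comparisons lay near the shares of all genes. TMM factors gave 1 higher and 7 lower of 14 in the first, beside 14.5% and 46.5% of all genes. In the second they gave 6 and 2 of 15, beside 37.49% and 26.96%. Cells with at least 3 members also held more S phase genes, at 2411 CPM against 385 in cells with none at day 0. At day 3 S phase genes were at 1202 against 457 CPM, and at day 5 at 1417 against 740. Day 5 barcodes of 1 to 100 UMIs held S phase genes at 1184 CPM, and uncalled ones of 500 to 1000 UMIs at 1763. The day 5 contrast is therefore given as values only, and the part of free RNA in it was not tested.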

How the data were processed

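Single-cell gene expression was measured in 3 libraries, 1 for each of days 0, 3 and 5. Values are UMI counts per gene and barcode, deposited by the authors without normalization. Per the submitters' processing notes, Cell Ranger 4.0.0 and hg38 (GRCh38) were used. Neither intron nor strand use is given in these sources. At day 5, whose matrix is unfiltered, a cell call needed 2155 UMIs, 1/10 of the 99th percentile among the 10000 largest barcodes. Cells needed 500 UMIs, 300 genes and at most 20% mitochondrial UMIs. Counts were summed over cells and divided by the total over 32732 shared genes (CPM), with Poisson 95% intervals. In ratios, libraries under 3 UMIs were set to 3. Intron bases and positions are from GENCODE 29. The call rule was run on simulated Poisson counts and the co-detection ratio on simulated independent genes. These hold no spread between libraries, doublets or free RNA, so they check the code only. Alternatives were median of ratios size factors, TMM factors (edgeR 4.0.16, R 4.3.3), totals that leave out mitochondrial and ribosomal protein genes, CPM limits of 5 and 20, a fold of 1.5, a strict filter (2000 UMIs, 1000 genes, 10% mitochondrial), other depths, every day 5 barcode of 1000 UMIs, and free RNA subtraction. The members, roles and lists were chosen with earlier results of these data known, and any of the 50 members could be named. Analysis used Python 3.11.15 with numpy 2.4.6, scipy 1.17.1 and pandas 2.3.3.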

Additional observations from a re-analysis of the deposited data

Results flagged for a closer look

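The members' sum in barcodes outside the called cells of day 5 lies outside the measurement that the comparisons use. In the 48101 barcodes of 500 to 1000 UMIs thinned to 500 UMIs it was 5009 CPM, against 2439 CPM in cells thinned alike. The files of days 0 and 3 hold called barcodes only, so there was no control library for this value.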

How the results depend on the processing

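Of the counts of called members, those for day 5 over day 3 stayed within 1.5 times under every alternative run, with 1 exception. Subtracting an assumed 20% of free RNA from day 5 gave 8 lower of 49, beside 31.5% of all genes. For day 3 over day 0, 0 were higher and 27 lower with TMM factors, beside 14.5% and 46.5% of all genes. The median of ratios gave 0 and 26, beside 15.2% and 45.3%. At a fold of 1.5, 8 of 47 were higher, beside 47.9% of all genes, and after thinning 7 of 47, beside 45.4%. For day 5 over day 0, 3 were higher and 14 lower with TMM factors, beside 32.6% and 43.0% of all genes. The median of ratios gave 3 and 15, beside 32.7% and 42.9%. The late to early ratio at days 0, 3 and 5 was 0.719, 0.387 and 0.445 with unassigned genes counted as early, 1.77, 0.807 and 0.979 without broad early genes, and 0.793, 0.543 and 0.436 from median genes. The strict filter gave 0.547 at day 3, and every barcode of 1000 UMIs 0.630 at day 5. The share of cells with at least 3 members was 8.63%, 10.97% and 14.2% at 500 UMIs, 33.7%, 34.3% and 63.6% at 2000, and 59.5%, 34.6% and 92.3% with no thinning. It was 25.6% and 17.6% at days 0 and 3 under the strict filter, and 51.4% with every day 5 barcode of 1000 UMIs, while at least 5 members were in 10.5%, 8.47% and 12.6%. The median co-detection ratio was 2.62, 1.499 and 1.41 at 500 UMIs, 2.78, 1.98 and 1.53 at 2000, 3.15, 2.58 and 1.78 with no thinning, 2.47, 1.86 and 1.54 under the strict filter, 2.41, 1.65 and 1.38 over pairs with at least 20 expected cells, and 1.34 with every day 5 barcode of 1000 UMIs. In each setting run for all 3 days this median was highest at day 0 and lowest at day 5, over sets of pairs that differ by day. As above, the day 5 value is not read as a difference from days 0 and 3. The causes of these moves were not tested. No paired analysis was possible because each group is 1 library, and for the same reason no replicate could be left out. The median cell of day 3 held 1324 UMIs, which limits what its cells can show of single members.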
